A study of Mus musculus with 26 samples.

Results

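The retinoid synthesis and binding genes are a set of 9 genes, chosen by symbol from the 23337 genes of the deposited count tables. They are the alcohol dehydrogenases *Adh1* and *Adh7*, the retinaldehyde dehydrogenases *Aldh1a1*, *Aldh1a2* and *Aldh1a3*, the retinoic acid hydroxylase *Cyp26b1*, the cellular retinoic acid binding proteins *Crabp1* and *Crabp2*, and *Rarres1*, a retinoid responsive gene. RNA-seq covered 26 samples, with 5 ArKI and 5 WT mice for both the initial segment (IS) and the caput epididymidis, and 3 ArKI and 3 WT mice for the testis. ArKI mice carry a germline knockin allele, present in every cell and throughout life. All males were 3 months old and of a C57Bl/6N; 129 hybrid strain, and the WT mice served as controls. The IS and caput libraries were sequenced in one run and the testis libraries in another, so that levels of testis and epididymis differ by tissue and by run, which cannot be told apart.

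Retinoic acid is made from vitamin A in steps. Retinol travels in blood bound to a carrier, enters cells, and is either stored as an ester or oxidised reversibly to retinaldehyde by alcohol dehydrogenases and short-chain dehydrogenases. The ALDH1A enzymes then oxidise retinaldehyde irreversibly to retinoic acid, CRABP proteins bind it in the cytoplasm, CYP26 enzymes hydroxylate it for removal, and the rest acts on nuclear receptors of the RAR and RXR families. The epididymal epithelium and the seminiferous epithelium both depend on vitamin A, and the proximal epididymis is known as a site of retinoic acid synthesis.

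The 250 bases before the transcript start are shown for *Adh1*, *Cyp26b1* and *Rarres1*, since the results turn on these 3 genes of synthesis, removal and response. Sequences are from RefSeq (GRCm38.p6), and 7 of the 9 members had an entry there. Capitals mark matches, on either strand, to a retinoid receptor motif, which was searched as AGGTCA, with AGTTCA as a second spelling, GGGTCA as another and GGTTCA as the last.
*Adh1*, chr3:138277335-138277584, plus strand: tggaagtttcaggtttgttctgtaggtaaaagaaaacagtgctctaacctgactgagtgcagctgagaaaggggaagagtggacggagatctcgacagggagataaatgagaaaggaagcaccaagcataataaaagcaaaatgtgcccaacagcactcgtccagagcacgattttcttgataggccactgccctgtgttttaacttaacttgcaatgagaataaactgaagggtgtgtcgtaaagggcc
*Cyp26b1*, chr6:84593811-84594060, minus strand: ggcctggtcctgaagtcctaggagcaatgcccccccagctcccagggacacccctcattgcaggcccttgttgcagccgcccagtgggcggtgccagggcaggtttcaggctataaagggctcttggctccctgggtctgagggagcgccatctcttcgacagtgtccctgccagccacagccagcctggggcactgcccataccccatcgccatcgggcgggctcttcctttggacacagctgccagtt
*Rarres1*, chr3:67515524-67515773, minus strand: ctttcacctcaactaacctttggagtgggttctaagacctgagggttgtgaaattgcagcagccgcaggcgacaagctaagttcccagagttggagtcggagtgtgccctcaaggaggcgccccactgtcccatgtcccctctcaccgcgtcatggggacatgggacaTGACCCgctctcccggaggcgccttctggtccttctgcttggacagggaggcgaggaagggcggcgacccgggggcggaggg
The stretch before *Rarres1* held 1 retinoid receptor motif, GGGTCA, 82 to 77 bases upstream of the start and read from the strand opposite to the gene. Those of *Adh1* and of *Cyp26b1*, whose transcript start in this table lies inside the annotated span of the gene, held no match. Among the other members, AGTTCA lay 221 to 216 bases before a start of *Adh7* and GGGTCA 49 to 44 bases before one of the starts of *Aldh1a1*, and both of these starts also lie inside the annotated span of their gene. Such matches are common, since 38.6% of 32851 promoter stretches of the same length held at least 1 of the 4 spellings.

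Levels are given as CPM, counts scaled to a common library size after TMM correction for composition, and levels of different genes are compared only per kilobase of exon. *Aldh1a1*, the main cytosolic retinaldehyde dehydrogenase of the adult, had the highest level per kilobase of the 9 members in all 6 groups. In WT mice it reached 658 ± 13.6 CPM per kilobase in the IS, 604 ± 43.0 in the caput (SD, n = 5 each) and 128 ± 27.6 in the testis (n = 3). *Adh1* was the next in the WT IS and caput, at 46.0 ± 3.64 and 51.7 ± 1.11 CPM per kilobase. *Aldh1a2* took that place in the WT testis, at 56.7 ± 3.81 CPM per kilobase, where *Adh1* was in place 6. Thus, among the 3 listed retinaldehyde dehydrogenase genes, the epididymal transcripts were almost entirely *Aldh1a1*. It made up 98.8% of the summed per-kilobase level of the 3 genes in the WT IS and 98.5% in the WT caput. The close copy *Aldh1a7*, described below, is not part of this sum. In the WT testis *Aldh1a1* made up 68.4% ± 4.90 and *Aldh1a2* 31.1% ± 4.85 (SD, n = 3). Likewise *Adh1* made up 99.3% of the summed *Adh1* and *Adh7* level in the WT IS and 57.4% ± 13.1 in the WT testis, where the rest was *Adh7*.

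**Figure D1:**
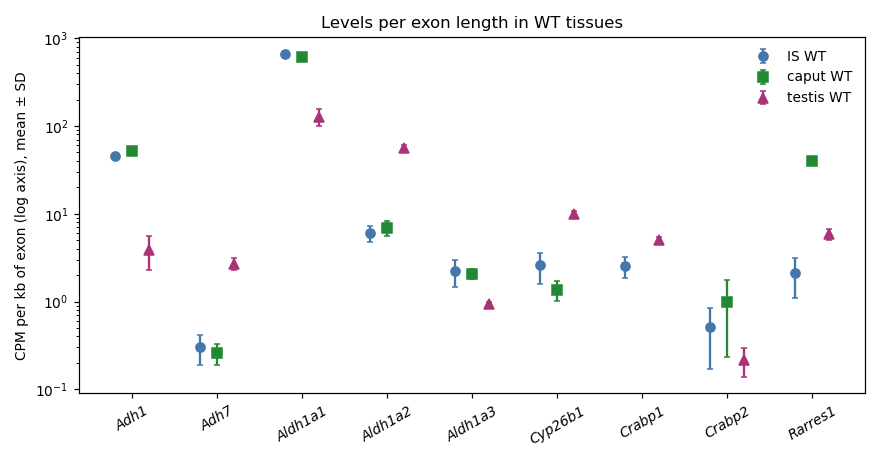
Mean level per kilobase of exon (CPM per kb, log axis) of each member in the WT IS, caput (n = 5 each) and testis (n = 3), with SD bars. *Aldh1a1* lies at the top in the 3 tissues, *Aldh1a2* is far higher in the testis than in the epididymis, *Rarres1* is highest in the caput, and *Crabp1* has no caput symbol because it had 0 counts there.

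The synthesis enzyme *Adh1* was higher in both epididymal segments of ArKI mice and the removal enzyme *Cyp26b1* was lower in both. In the caput *Rarres1* was also lower, and in the testis it was higher. *Adh7* was called higher in the caput too, but that call was lost in 11 of 19 alternatives. Genes were called at an adjusted p of less than 0.01 for the epididymis and less than 0.2 for the testis, each with a fold change above 2, from edgeR's quasi-likelihood test over all genes of the tissue. In the IS, 1 of the 8 tested members was called higher and 1 lower, where 2.72% of all 13434 tested genes were called higher and 1.32% lower. Both were under the adjusted p limit at any fold, as were 18.8% of all genes, and both had groups that did not overlap, as had 20%. In the caput, 2 of the 7 tested members were called higher and 2 lower, against 2.43% and 2.55% of 13726 genes. There 5 members were under the adjusted p limit, against 18% of genes, and 5 had groups that did not overlap, against 20.2%. In the testis, 1 of 8 tested members was called higher and 0 lower, against 0.751% and 0.0821% of 15838 genes, and 3 were under the adjusted p limit at any fold, against 5.34%. The same 3 had groups that did not overlap, as did 17.8% of all genes. The count of 0 lower in the testis was also 0 at an unadjusted p below 0.05, and by DESeq2 and limma-voom. *Crabp2* fell below the count filter in each tissue and *Crabp1* in the caput, so neither was tested there.

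**Figure D2:**
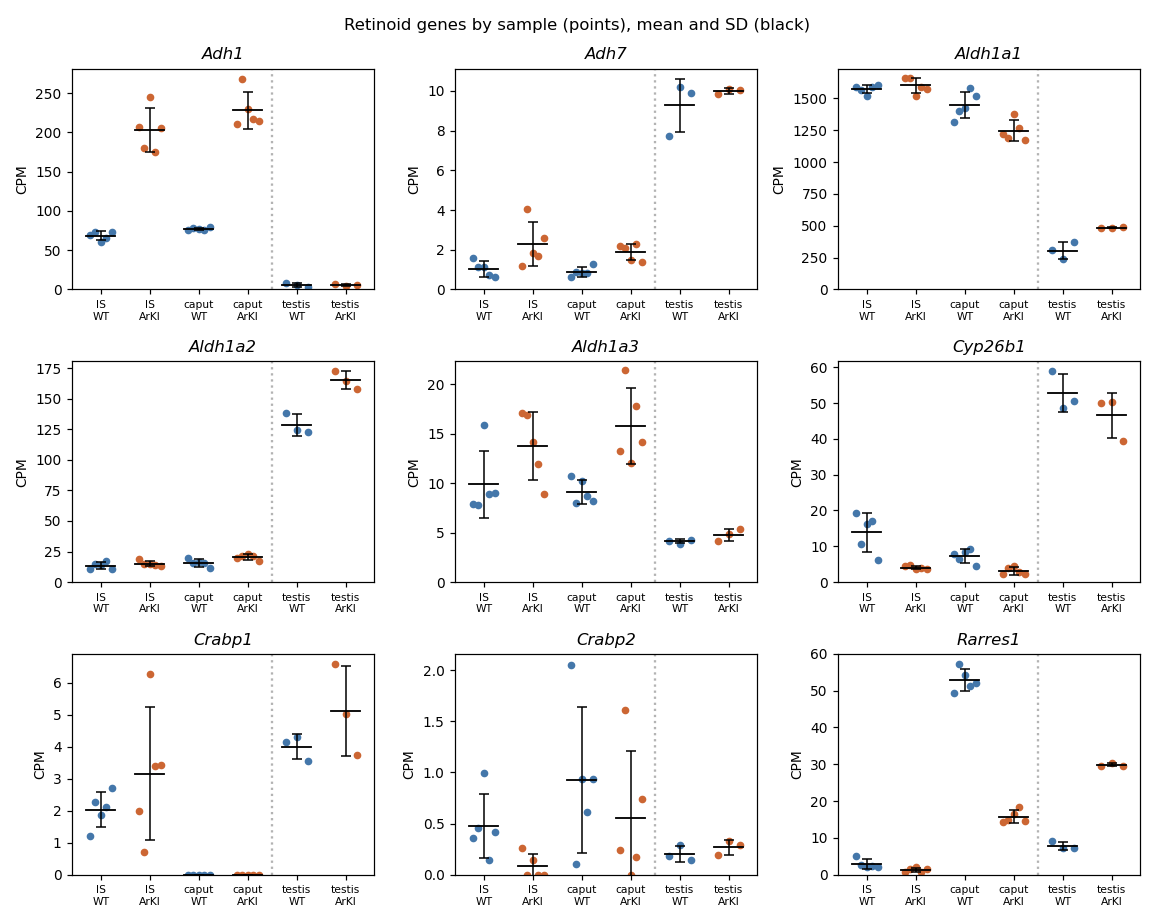
CPM of the 9 members in each sample (points) by tissue and genotype, with group mean and SD in black. ArKI and WT samples stand apart for *Adh1* and *Cyp26b1* in the IS and caput and for *Rarres1* in the caput and testis, and the dotted line separates the 2 sequencing runs.

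Of the alcohol dehydrogenases, *Adh1*, whose product oxidises retinol and other alcohols, lies on chromosome 3 (138277585 to 138290698, GRCm38). In the IS its levels were 69.9, 73.2, 60.6, 66.2 and 73.6 CPM in the WT samples and 207, 181, 245, 175 and 206 CPM in the ArKI samples. Even the lowest ArKI sample was far above the highest WT sample. The level was 2.95 times higher in ArKI IS (log2 fold change 1.56, SE 0.09, adjusted p = 5.78e-08).
In the caput *Adh1* was at 75.9, 78.5, 76.7, 75.3 and 79.1 CPM in WT and 211, 268, 229.6, 217 and 214 CPM in ArKI mice, again without overlap and with very similar WT samples. The difference was of the same size as in the IS (log2 fold change 1.56, SE 0.062, adjusted p = 3.02e-11). The test of the difference between the segments gave −0.0027 on the log2 scale, with a 95% interval of −0.22 to 0.21 (adjusted p = 0.995). This estimate turned to 0.007368 when samples were scaled by library size alone.
In the testis *Adh1* was low, at 8.46, 5.39 and 3.64 CPM in WT and 6.39, 4.70 and 6.35 CPM in ArKI mice, and the groups overlapped. The testis difference (log2 fold change −0.039, SE 0.26, adjusted p = 0.972) had a 95% interval of −0.56 to 0.48. It changed sign under limma-voom (0.01443) and without 1 library, reaching 0.35 without WT replicate 1.

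*Adh7*, a class IV alcohol dehydrogenase with high activity towards retinol, showed the opposite tissue pattern and was highest in the testis. There it was at 7.74, 10.2 and 9.91 CPM in WT and 9.84, 10.1 and 10.05 CPM in ArKI mice, with overlapping groups (log2 fold change 0.12, SE 0.12, adjusted p = 0.747). In the epididymis its counts were few, between 5 and 29 in a sample. In the caput it was at 0.616, 0.873, 0.818, 0.854 and 1.29 CPM in WT and 2.17, 2.07, 1.51, 2.31 and 1.40 CPM in ArKI mice. The groups did not overlap, although the highest WT and the lowest ArKI sample were close. The test called the caput difference (log2 fold change 1.06, SE 0.28, adjusted p = 0.00808). In the alternatives the adjusted p reached 0.0287. The call was lost without a count filter, by DESeq2, with the replicate block, in one fit over the 4 epididymal groups, and without WT replicate 1, 2, 3 or 4 and without ArKI replicate 1, 2 or 4, while the log2 fold change stayed between 0.95 and 1.23.
In the IS *Adh7* was at 1.57, 1.14, 1.12, 0.707 and 0.626 CPM in WT and 1.19, 4.08, 1.86, 1.71 and 2.60 CPM in ArKI mice. The ArKI samples were widely spread and the groups overlapped. The difference did not pass the limit (log2 fold change 1.14, SE 0.34, adjusted p = 0.0165), but did without ArKI replicate 1 (log2 fold change 1.313, adjusted p = 0.00713). Without ArKI replicate 2, the highest sample, the log2 fold change was 0.84 (adjusted p = 0.0638).

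**Figure D3:**
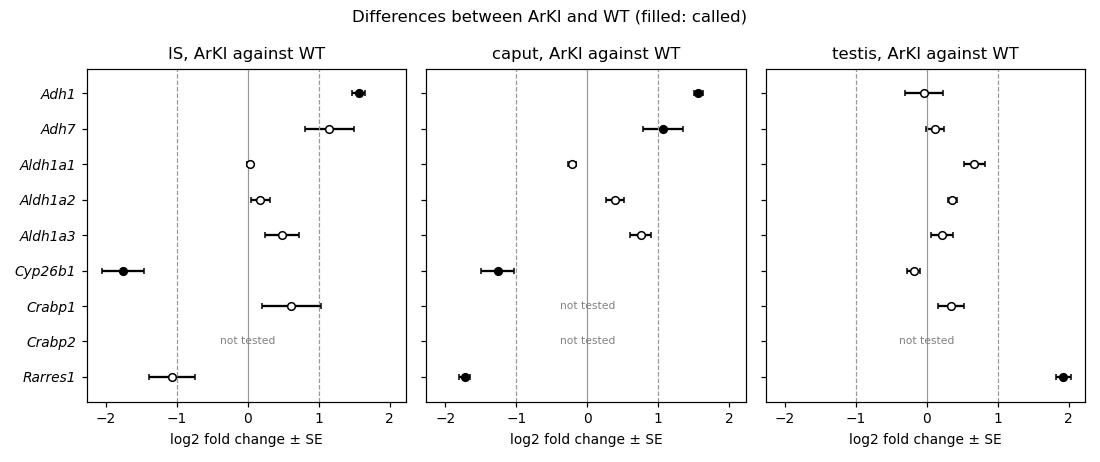
Log2 fold change of ArKI against WT with its SE for the members tested in the IS (8), caput (7) and testis (8), with the others marked as not tested. Filled symbols are called, dashed lines mark a 2-fold change, and *Rarres1* lies on the left in the epididymis (−1.07 and −1.73) and on the right in the testis (1.92).

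Of the retinaldehyde dehydrogenases, *Aldh1a1* (chromosome 19, 20492583 to 20643463) differed little in the epididymis. In the IS it was at 1588, 1565, 1523, 1593 and 1606 CPM in WT and 1663, 1662, 1522, 1589.9 and 1575 CPM in ArKI mice, with overlapping groups. The 95% interval of the IS difference was −0.056 to 0.11 on the log2 scale (adjusted p = 0.699). In the caput it was at 1316, 1399, 1428, 1579.9 and 1516 CPM in WT and 1219, 1190.1, 1381, 1266 and 1171 CPM in ArKI mice. Most ArKI samples lay below the WT samples, but the groups overlapped and the difference did not pass the limit (log2 fold change −0.21, SE 0.061, adjusted p = 0.0136).
In the testis *Aldh1a1* was at 308, 238 and 371 CPM in WT and 481, 487 and 491 CPM in ArKI mice. All ArKI samples were above all WT samples, and the WT samples were the more spread. The difference was under the adjusted p limit of the testis but below a 2-fold change (log2 fold change 0.67, SE 0.15, adjusted p = 0.11). It was above that limit with no filter (adjusted p = 0.236), without WT replicate 1 (0.248) and without any one of the ArKI replicates (0.218 to 0.4). It was under the limit by DESeq2 (0.0152), by limma-voom (0.000592) and with the replicate block (0.000566). The same held without WT replicate 2 (8.75e-05) or 3 (7.52e-06). The log2 fold change stayed between 0.52 and 0.83 in the alternatives.
*Aldh1a7*, a close copy of *Aldh1a1* on the same chromosome that was named here after its values were seen, bears on this gene, since reads shared by both copies do not map uniquely and were not counted. *Aldh1a7* had 14.5 ± 1.35 CPM in the WT testis and 53.5 ± 3.85 CPM in the ArKI testis (SD, n = 3 each, log2 fold change 1.88, SE 0.091, adjusted p = 1.74e-11). In the caput it had 588 ± 68.6 CPM in WT and 330 ± 46.1 CPM in ArKI mice (SD, n = 5 each, log2 fold change −0.83, SE 0.10, adjusted p = 4.45e-05). In the IS it had 341 ± 56.6 CPM in WT and 481 ± 71.5 CPM in ArKI mice (log2 fold change 0.50, SE 0.14, adjusted p = 0.0231). How reads were split between the copies was not tested.

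*Aldh1a2* (chromosome 9, 71215789 to 71296243), the retinaldehyde dehydrogenase that the embryo needs most, was a testis transcript. It was at 138, 124 and 123 CPM in the WT and 173, 165 and 158 CPM in the ArKI testis. The groups stood apart, and the difference was under the adjusted p limit with a fold change of 1.28 (log2 fold change 0.36, SE 0.066, adjusted p = 0.00244). In the epididymis it was at 13.6 ± 2.80 CPM (SD, n = 5) in the WT IS and 15.7 ± 2.97 CPM (SD, n = 5) in the WT caput. Neither epididymal difference passed the limit (log2 fold change 0.17, SE 0.13, adjusted p = 0.366 in the IS, and log2 fold change 0.39, SE 0.12, adjusted p = 0.0258 in the caput).
*Aldh1a3* (chromosome 7, 66390892 to 66427477), the third enzyme of this family, was at 10.7, 7.97, 10.2, 8.66 and 8.19 CPM in the WT and 13.3, 21.4, 12.1, 17.8 and 14.2 CPM in the ArKI caput. The groups did not overlap, and the difference was under the adjusted p limit but below a 2-fold change (log2 fold change 0.75, SE 0.15, adjusted p = 0.00108). In the IS it was at 7.84, 7.78, 15.9, 8.91 and 8.98 CPM in WT and 17.03, 16.9, 14.1, 11.9 and 8.86 CPM in ArKI mice. One WT sample stood above the others, the groups overlapped, and the test was not passed (log2 fold change 0.48, SE 0.23, adjusted p = 0.151). Without that sample, WT replicate 3, the adjusted p was under the limit (0.00537), at a log2 fold change of 0.71, which is below 2-fold. In the testis it was lower, at 4.12 ± 0.211 CPM (SD, n = 3) in WT and 4.78 ± 0.596 CPM (SD, n = 3) in ArKI mice (adjusted p = 0.601).
Summed markers of several cell types also stood apart between the caput groups. The 4 epithelial genes summed to 1142 to 1203 CPM in WT and 1341 to 1517 CPM in ArKI caput, with 3 of the 4 under the adjusted p limit below a 2-fold change. The 4 fibroblast genes summed to 679 to 753 CPM in WT and 794 to 1878 CPM in ArKI caput, and the lowest adjusted p among them was 0.0510. The ArKI median of this sum was 915 CPM. *Pdgfra* of this list went the other way, at 90.9 CPM in WT and 65.3 CPM in ArKI caput on average. The 4 efferent duct and ciliated cell genes summed to 26.1 to 29.5 CPM in WT and 39.9 to 51.3 CPM in ArKI caput, with 1 of the 3 tested called lower. Most of that sum was *Aqp1*, a water channel gene, at 23.2 CPM in WT and 43.3 CPM in ArKI caput on average (log2 fold change 0.91, SE 0.082, adjusted p = 3.16e-07). None of these genes was at 0, and their part in the caput differences of *Adh1*, *Adh7* and *Aldh1a3* was not tested.

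The hydroxylase gene *Cyp26b1* (chromosome 6, 84571414 to 84593908), which clears retinoic acid and is known for shielding germ cells of the fetal testis from it, was lower in ArKI IS and caput. In the IS it was at 19.4, 10.6, 16.3, 16.97 and 6.16 CPM in WT and 4.36, 4.78, 3.57, 3.93 and 3.66 CPM in ArKI mice. The WT samples spread over a wide range while the ArKI samples were alike, and even the lowest WT sample was above all ArKI samples. The level was 3.38 times lower in ArKI mice (log2 fold change −1.76, SE 0.30, adjusted p = 0.00106).
In the caput it was at 7.90, 6.55, 8.42, 9.27 and 4.45 CPM in WT and 2.17, 3.92, 4.43, 2.73 and 2.23 CPM in ArKI mice. The lowest WT sample and the highest ArKI sample nearly touched. The level was 2.40 times lower in ArKI mice (log2 fold change −1.26, SE 0.23, adjusted p = 0.000558), and the call was kept in the 19 alternatives, as it was in the IS.
The testis had more *Cyp26b1* than the epididymis, at 58.9, 48.7 and 50.7 CPM in WT and 50.1, 50.2 and 39.4 CPM in ArKI mice. These groups overlapped, and the 95% interval of the difference was −0.37 to 0.0026 (adjusted p = 0.426).
The IS samples also differed in smooth muscle markers. The summed level of *Acta2*, *Myh11*, *Cnn1* and *Tagln* was 501 to 564 CPM in WT and 209 to 384 CPM in ArKI IS, with 2 of the 4 genes called lower and none at 0. In the caput the sums overlapped, at 718 to 884 CPM in WT and 582 to 1275 CPM in ArKI mice, and none of the 4 was called. The epithelial, fibroblast and efferent duct sums of the caput, given above, stood apart, as did the sum of 8 sperm genes, at 231 to 363 CPM in WT and 36.0 to 96.9 CPM in ArKI caput. The 3 basal cell genes summed to 262 to 308 CPM in WT and 205 to 232 CPM in ArKI IS. The 3 genes listed as caput markers (*Adam7*, *Adam28* and *Lcn5*) summed to 20633 to 21697 CPM and 25732 to 28992 CPM. Each list had 1 gene under the adjusted p limit below a 2-fold change and none at 0. The caput list does not mark the caput alone. Between the WT segments 1 of its genes was called higher in the caput and 1 lower. *Lcn5* was at 83.5 CPM in WT and 61.2 CPM in ArKI IS on average. The IS sums of the 4 fibroblast genes overlapped. Of these, *Col1a1* and *Col1a2* were higher and *Pdgfra* lower, each under the limit below a 2-fold change. The part of these markers in the *Cyp26b1* and *Adh1* differences was not tested. In these bulk samples, fewer cells of a type and less RNA per cell cannot be told apart.
Per kilobase, the summed *Aldh1a* level was 185 to 589 times that of *Cyp26b1* in the WT IS and 789 to 972 times in the ArKI IS. In the caput the ratio was 380 to 770 in WT and 698 to 1284 in ArKI mice, and in the testis 17.1 to 22.2 in WT and 29.5 to 37.5 in ArKI mice. These ratios rest on the values above and were not tested.

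Of the retinoic acid binding proteins, *Crabp1* (chromosome 9, 54764748 to 54773110) was detected in the IS and testis, but had 0 counts in all 10 caput samples. The IS counts were 10, 20, 15, 15 and 26 in WT and 15, 5, 44, 20 and 29 in ArKI mice. With 3 counts over the caput group taken as the limit that a count of 0 allows, the pooled IS level was 30.6 times that limit in WT mice and 50.2 times in ArKI mice. These values leave out the error of the IS level and the spread between mice. Between ArKI and WT its IS level did not pass the test, with the ArKI samples spread from 0.703 to 6.28 CPM around the WT samples at 1.21 to 2.71 CPM (log2 fold change 0.61, SE 0.42, adjusted p = 0.304). The log2 fold change was 0.21 without ArKI replicate 3 (adjusted p = 0.709) and 0.87 without ArKI replicate 2 (adjusted p = 0.0358). In the testis it was at 4.14, 4.31 and 3.56 CPM in WT and 6.58, 5.03 and 3.75 CPM in ArKI mice, with overlap (log2 fold change 0.35, SE 0.19, adjusted p = 0.442).
*Crabp2* (chromosome 3, 87948693 to 87953372) was close to the detection limit. Its IS counts were 3, 4, 8, 1 and 4 in WT and 2, 0, 1, 0 and 0 in ArKI mice, and its caput counts were 20, 1, 8, 5 and 8 in WT and 2, 7, 0, 2 and 9 in ArKI mice. The ArKI IS samples tended to hold fewer counts, but the groups overlapped. A two-sided exact permutation test of log2(CPM + 0.5) gave p = 0.0238 in the IS, 0.341 in the caput and 0.2 in the testis. After Benjamini-Hochberg adjustment over these 3 exact tests the values were 0.0714, 0.341 and 0.3, where the smallest p the design allows is 0.00794 with 5 against 5 and 0.1 with 3 against 3.

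The retinoid responsive gene *Rarres1* (chromosome 3, 67478886 to 67515523), a membrane protein gene found through its induction by a synthetic retinoid in skin cells, moved in opposite directions in the caput and the testis. In the caput it was at 49.4, 57.2, 54.3, 51.2 and 51.98 CPM in WT and 14.3, 14.98, 16.6, 18.4 and 14.7 CPM in ArKI mice. Both groups were tight and far apart, and the level was 3.31 times lower in ArKI mice (log2 fold change −1.73, SE 0.075, adjusted p = 8.22e-11).
In the testis it was at 9.06, 7.18 and 7.20 CPM in WT and 29.6, 30.3 and 29.6 CPM in ArKI mice. Every ArKI sample was well above every WT sample, and the level was 3.79 times higher (log2 fold change 1.92, SE 0.10, adjusted p = 7.76e-11). Both calls were kept in all alternatives tried.
In the IS its counts were few, 43, 22, 16, 16 and 20 in WT and 6, 11, 14, 5 and 12 in ArKI mice. One WT sample stood above the rest, and the groups touched at 1.99 and 2.00 CPM. The difference did not pass the limit (log2 fold change −1.07, SE 0.33, adjusted p = 0.0183), but did without ArKI replicate 3 (log2 fold change −1.255, adjusted p = 0.00937). Without WT replicate 1, the sample above the rest, the log2 fold change was −0.73 (adjusted p = 0.0739).
Markers of other cells moved in the same samples. In the caput, the summed level of 8 sperm and late spermatid genes was 231 to 363 CPM in WT and 36.0 to 96.9 CPM in ArKI mice, with all 8 called lower and none at 0. In the IS the sperm sum was 10.6 to 71.0 CPM in WT and 2.00 to 6.14 CPM in ArKI mice, and both tested genes were called lower. In the testis, the summed level of 4 Leydig cell genes was 472 to 630 CPM in WT and 816 to 890 CPM in ArKI mice, with none at 0. Of these, 2 were under the adjusted p limit below a 2-fold change, the steroid synthesis genes *Cyp11a1* (log2 fold change 0.92, adjusted p = 1.05e-06) and *Cyp17a1* (log2 fold change 0.59, adjusted p = 4.35e-05). The testis sum of 4 fibroblast genes was 103 to 116 CPM in WT and 135 to 143 CPM in ArKI mice, with 2 of the 4, the collagen genes *Col1a1* (log2 fold change 0.48, adjusted p = 0.00575) and *Col1a2* (log2 fold change 0.63, adjusted p = 1.57e-05), under the limit in the same way. That of 7 leukocyte genes was 18.7 to 21.1 CPM in WT and 21.7 to 25.3 CPM in ArKI mice, with 1 of the 6 tested under the limit. Their part in the *Rarres1*, *Aldh1a1* and *Aldh1a2* differences was not tested.

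The ArKI effect was also compared between tissues. Between caput and IS, 0 of the 7 members tested with counts in both segments passed the interaction test by edgeR at an adjusted p of 0.01, where 8.18% of 14329 genes did. One member, *Aldh1a1*, was at an unadjusted p below 0.05, as were 27.8% of genes (interaction −0.24 on the log2 scale, adjusted p = 0.0331). DESeq2 passed the same gene (adjusted p = 0.00699) and limma-voom passed 0. The *Rarres1* interaction of −0.66 (adjusted p = 0.181) passed without WT IS replicate 1, at −1.015 (adjusted p = 0.00861), and that of *Aldh1a1* without ArKI caput replicate 3, at −0.295 (adjusted p = 0.00838).
A test of the testis effect against the epididymal effect, chosen after the data were seen, passed 3 of 7 members against the caput and 4 of 8 against the IS, where 8.02% and 5.56% of 16879 genes passed. For *Rarres1* the testis effect exceeded that of the caput by 3.66 ± 0.18 (SE) on the log2 scale (adjusted p = 1.3e-15) and that of the IS by 3.02 ± 0.30 (adjusted p = 4.2e-08). For *Adh1* the difference was −1.59 ± 0.23 from the caput (adjusted p = 3.25e-05), and −1.57 ± 0.24 from the IS (adjusted p = 7.05e-05). For *Aldh1a1* the differences were 0.90 from the caput (adjusted p = 2e-06) and 0.68 from the IS (adjusted p = 0.000228). *Cyp26b1* passed against the IS only (1.60, adjusted p = 0.00367), and not without ArKI IS replicate 3 or 5 or ArKI testis replicate 2, where the adjusted p was 0.0102 to 0.0104. Against the caput its difference was 1.10 (adjusted p = 0.0482), which passed without WT IS replicate 5 (adjusted p = 0.0047).

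Along the duct of WT mice, 1 of 8 tested members was called higher in the caput than in the IS and 1 lower, against 11.4% and 10.2% of 14329 genes. *Rarres1* was 18.7 times higher in the WT caput (log2 fold change 4.23, SE 0.15, adjusted p = 1.83e-18), and *Crabp1* was the gene called lower. *Cyp26b1* was 1.88 times lower in the WT caput (log2 fold change −0.91, SE 0.25, adjusted p = 0.00256), which is below a 2-fold change, and exceeded it without WT IS replicate 5 (log2 fold change −1.11). In ArKI mice the same 2 genes were called, against 10.1% of genes higher and 9.64% lower, with *Rarres1* 11.8 times higher in the caput (log2 fold change 3.56, SE 0.20, adjusted p = 2.83e-14). The order of groups by level was caput WT, testis ArKI, caput ArKI, testis WT, IS WT and IS ArKI for *Rarres1*, where only the IS groups overlapped. For *Adh1* the order was caput ArKI, IS ArKI, caput WT, IS WT and then the testis groups, with overlap between the ArKI segments and between the testis groups. For *Cyp26b1* the testis groups led and overlapped each other, followed by IS WT, caput WT, IS ArKI and caput ArKI, each overlapping the next.

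Genes whose levels followed those of the called members over the 20 epididymal samples were ranked by Pearson's r of log2(CPM + 0.5). These samples share the 4 groups, so the values are descriptions. Nearest to *Adh1* were *Sult1e1* (r = 0.981), *Fuca1* (0.978) and *C4b* (0.974). Nearest to *Cyp26b1* were *Atp1b3* (r = 0.916), *Pltp* (0.910) and *Icosl* (0.895). Nearest to *Rarres1* were *Mtap7d2* (r = 0.992), *Ptgds* (0.991) and *Erc2* (0.983), which were also higher in the WT caput than in the WT IS, with log2 fold changes of 2.93, 4.22 and 3.22. For *Adh7*, with its low counts, the highest values were those of *Ppp2r3a* (r = 0.847), *Mmp19* (0.841) and *Lyve1* (0.814). Among the members, *Adh1* and *Cyp26b1* ran in opposite directions over the 20 samples (r = −0.84).

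Of 38 other genes of the pathway, 25 were tested in the IS, where 3 were called higher and 2 lower, against 2.72% and 1.32% of all tested genes. By DESeq2 the counts were 4 and 2. *Ttr*, the plasma carrier transthyretin, had 1 to 3 counts in each WT and 23 to 61 in each ArKI IS sample. Over the groups this was 12 against 195 counts, a ratio of 19.2 with a 95% counting interval of 10.8 to 37.9 (log2 fold change 4.17, SE 0.37, adjusted p = 5.78e-08). *Tgm2*, a transglutaminase known to respond to retinoic acid, was at 221 to 245 CPM in WT and 1067 to 1349 CPM in ArKI IS (log2 fold change 2.38, SE 0.062, adjusted p = 2.93e-15). *Fabp5*, a lipid carrier that can bring retinoic acid to another nuclear receptor, was at 6.76 to 8.19 CPM in WT and 1.14 to 1.85 CPM in ArKI IS (log2 fold change −2.39, SE 0.19, adjusted p = 1.25e-08). *Rbp2*, a cellular retinol binding protein, was at 0.483 to 1.37 CPM in WT and 1.83 to 5.71 CPM in ArKI IS (log2 fold change 1.93, SE 0.34, adjusted p = 0.000241). In the caput, where it fell below the count filter and was not tested between genotypes, it had 6 to 12 counts in each WT and 0 to 2 in each ArKI sample, and it passed the interaction test of segment and genotype (adjusted p = 6.11e-06). *Lrat*, which stores retinol as an ester, was the other gene called lower, at 7.20 to 14.7 CPM in WT and 3.00 to 5.67 CPM in ArKI IS.
The IS ranges of these 5 genes did not overlap, which their calls made likely beforehand. Over the 38 genes, tested or not, 5 were higher and 3 lower in ArKI IS without overlap. Of all tested genes, 20% had IS groups that did not overlap. Efferent duct and ciliated cell markers also moved in the IS, where 2 of the 4 were called higher and their sum was 132 to 160 CPM in WT and 131 to 353 CPM in ArKI samples. The smooth muscle, basal cell, caput list and sperm sums of the IS, given above, also stood apart between genotypes. The part of all these markers in the differences of the 5 called genes was not tested.
In the caput, 21 of the 38 were tested, 2 were called higher and 1 lower, against 2.43% and 2.55% of all tested genes. By DESeq2 the counts were 4 and 2. *Stra6*, the membrane receptor that takes up retinol, was at 8.42 to 12.2 CPM in WT and 1.32 to 3.00 CPM in ArKI caput (log2 fold change −2.24, SE 0.19, adjusted p = 1.51e-07). In the IS it was at 4.97 to 6.51 CPM in WT and 2.81 to 3.93 CPM in ArKI mice. The testis had 5.85 to 7.32 CPM in WT and 8.09 to 9.36 CPM in ArKI mice, and *Stra6* was called in neither. *Rdh12*, a retinaldehyde reductase, was at 7.42 to 8.89 CPM in WT and 19.1 to 22.8 CPM in ArKI caput (log2 fold change 1.37, SE 0.088, adjusted p = 6.9e-09). *Tgm2* was at 102 to 176 CPM in WT and 231 to 433 CPM in ArKI caput (log2 fold change 1.11, SE 0.21, adjusted p = 0.00475). These 3 did not overlap between genotypes, which their calls also made likely. Over the 38 genes, tested or not, 8 were higher and 2 lower in ArKI caput without overlap. Of all tested genes, 20.2% had caput groups that did not overlap. The marker sums of the caput given above moved in the same samples, and their part in these differences was not tested. In the interaction test of segment and genotype 6 of 27 tested pathway genes passed, against 8.18% of all genes, among them *Rdh12* (1.01, adjusted p = 1.13e-06) and *Stra6* (−1.40, adjusted p = 0.000302).
In the testis, 29 were tested and 0 were called by edgeR, DESeq2 or limma-voom, against 0.751% of all tested genes called higher and 0.0821% lower by edgeR. Of the 29, 6 were at an unadjusted p below 0.05, as were 13.1% of all tested genes. The median log2 fold change of the tested list was 0.050 in the IS, 0.11 in the caput and −0.011 in the testis, where that of all tested genes was within 0.0023 of 0. Of 5 tested RAR and RXR genes in the IS, 5 in the caput and 6 in the testis, 0 were called by any of the 3 tools, with 1 at an unadjusted p below 0.05, in the caput, where 37.7% of all tested genes were.

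**Figure D4:**
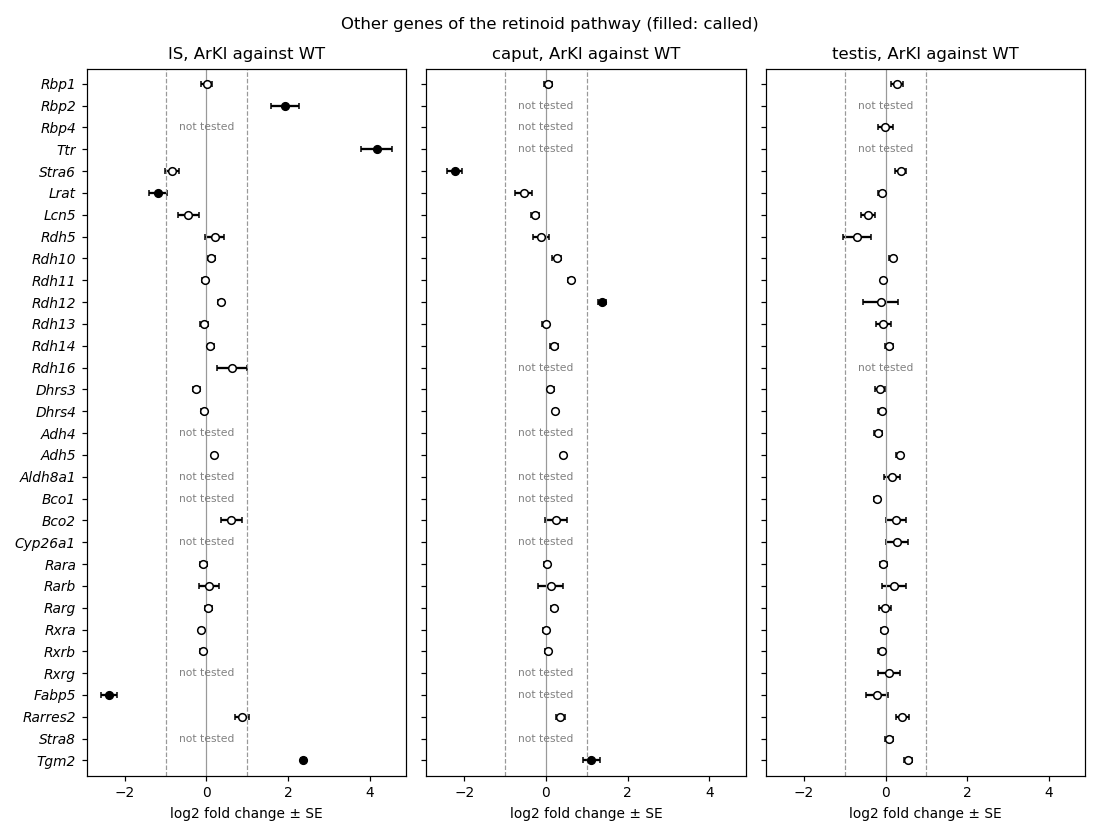
Log2 fold change of ArKI against WT with its SE for the other pathway genes tested in at least 1 tissue. Filled symbols are called, with 5 in the IS, 3 in the caput and 0 in the testis, and the receptor genes *Rara* to *Rxrb* lie near 0.

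The libraries held 4125768 to 21376604 counts, 5829074 to 9770625 in the IS, 4125768 to 11913469 in the caput and 14077013 to 21376604 in the testis. A count of 0 thus allows up to 0.252 to 0.727 CPM in a caput sample, for counting error only. IS markers (*Ros1*, *Cst8*, *Cst11* and *Etv5*) summed to 9375 to 11518 CPM in the IS and 681 to 2358 CPM in the caput, and sperm genes to 17053 to 21392 CPM in the testis. The marker lists not mentioned so far had sums that overlapped between genotypes in each tissue, and at most 1 gene called in either direction.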

How the data were processed

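Single-end RNA-seq libraries came from 5 mice a genotype for each epididymal segment and 3 mice a genotype for the testis. The authors aligned the reads to mm10 with STAR, counted uniquely mapped reads per RefSeq gene with Subread 1.5.1, and deposited raw counts for 23337 genes in 26 samples, unscaled and unfiltered. The labels name an unstranded library kit and the study's methods a stranded one, so overlapping antisense genes cannot be told apart with certainty.

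Groups were taken from the sample labels. Each tissue was tested by itself in R 4.3.3 with edgeR 4.0.16 (filterByExpr with a minimum count of 10 and a total of 15, TMM, robust quasi-likelihood fit, Benjamini-Hochberg adjustment over all tested genes). The study's methods have both segments collected from 5 ArKI and 5 WT mice, and the labels do not say which IS and caput samples share a mouse. Segments and their interaction were tested in one fit over the 20 epididymal samples, taken as independent, and the testis effect against the epididymal effects over all 26. CPM were scaled by TMM within the 20 epididymal and within the 6 testis samples. Errors of fold changes are SE from the quasi-likelihood F, and 95% intervals come from these. The members, the pathway list and the marker lists were chosen with earlier results of these data known. The gene changed by the knockin is not reported here. All 9 members are named, with the pathway genes called in a tissue and the 3 genes nearest to each called member, and marker genes given with single values were picked after these were seen. The ROTS test named in the study's methods was not run. DESeq2 1.42.0, limma-voom (limma 3.58.1), RLE factors, scaling by library size, no filter, other thresholds, 1 fit over 4 groups, a replicate block and leaving out each replicate were the alternatives.

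Depth was 4125768 to 21376604 counts a sample. Replicates of a group differed by more than sampling noise (chi-square per degree of freedom 2.48 to 20.0). In simulated data with 4-fold changes, edgeR recovered 193 of 195 changed genes with 1 false call among 13322 genes in the IS, 193 of 195 with 0 among 13600 in the caput, 191 of 191 with 2 among 15707 in the testis and 176 of 196 with 2 among 14072 for the interaction. Changes below 4-fold, such as the called ArKI differences of the members, were not simulated.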

Additional observations from a re-analysis of the deposited data

Results flagged for a closer look

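Among the groups of 5 samples, 2 of 34 held a sample far from the rest by Dixon's test, where chance gives about 1.7. WT IS replicate 3 had 15.9 CPM of *Aldh1a3* (128 counts), with a gap of 0.802 of the group's range on the log2 scale. WT IS replicate 1 had 5.19 CPM of *Rarres1* (43 counts), with a gap of 0.767 of the range.

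The ArKI effect differed between testis and epididymis for 4 members, in a test chosen after the data were seen (edgeR, adjusted over all genes). Against the IS, the difference of log2 fold changes was −1.575 for *Adh1* (SE 0.236, adjusted p = 7.05e-05), 0.6775 for *Aldh1a1* (SE 0.119, adjusted p = 0.000228), 1.603 for *Cyp26b1* (SE 0.348, adjusted p = 0.00367) and 3.022 for *Rarres1* (SE 0.305, adjusted p = 4.2e-08). Against the caput it was −1.588 for *Adh1* (SE 0.235, adjusted p = 3.25e-05), 0.9017 for *Aldh1a1* (SE 0.119, adjusted p = 2e-06) and 3.665 for *Rarres1* (SE 0.177, adjusted p = 1.3e-15). *Rarres1* was lower in every ArKI caput sample than in every WT caput sample and higher in every ArKI testis sample than in every WT testis sample.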

How the results depend on the processing

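The calls of *Adh1* and *Cyp26b1* in the IS and caput and of *Rarres1* in the caput and testis were kept in all alternatives run. The count of members called in the IS rose to 2 higher and 2 lower, from 1 and 1, with all 4 epididymal groups in one fit and with an adjusted p below 0.05, and ranged from 1 to 2 in either direction without 1 replicate. The count called higher in the caput fell from 2 to 1 without a filter, by DESeq2, with the replicate block and in one fit over 4 groups, and ranged from 1 to 2 without 1 replicate, always by *Adh7*. Without the fold change limit *Aldh1a3* was also called higher in the ArKI caput against WT (adjusted p = 0.00108 by edgeR). In that setting 3 members were called higher in the testis, 2 lower in the WT caput against IS (1 to 2 without 1 replicate), and 2 higher and 2 lower in the ArKI caput against IS. The interaction passed 1 member by DESeq2 and 0 to 1 without 1 replicate.

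The labels do not say which IS and caput samples share a mouse, and the replicate numbers were not taken to pair them. Between IS and caput, the correlation of same-numbered samples was −0.0029 to 0.17 in WT and −0.098 to 0.20 in ArKI mice. There 3 of 5 WT and 2 of 5 ArKI samples correlated best with their own number, more than random matching gives on average. These values do not settle whether same-numbered IS and caput samples share a mouse. Same-numbered WT and ArKI samples of a tissue, which cannot share a mouse, had correlations of −0.17 to 0.20. With genotype and number as a replicate block shared by the segments, 3102 genes were called between the WT segments (3096 without), 2828 between the ArKI segments (2834) and 1142 in the interaction (1172), and no member gained or lost a call in these 3 comparisons. With the replicate block inside each tissue, 557 genes were called in the IS (543 without), 656 in the caput (683) and 136 in the testis (132), and *Adh7* in the caput had an adjusted p of 0.0246 in place of 0.00808.

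Differences near 0 changed sign. That of *Adh1* in the testis was 0.01443 by limma-voom and 0.01256 with the replicate block, and its interaction was 0.007368 with scaling by library size only. Without 1 replicate, log2 values ranged from −0.2809 to 0.3497 for *Adh1* and −0.009497 to 0.1894 for *Adh7* in the testis, −0.1801 to 0.1323 for *Aldh1a3* in WT and −0.4711 to 0.001307 for *Adh7* in ArKI caput against IS, −0.06509 to 0.08647 for *Adh1* and −0.2907 to 0.216 for *Adh7* in the interaction, −0.113 to 0.09745 for *Aldh1a2* in the testis against the caput effect, and −0.4926 to 0.1676 for *Crabp1* in the testis against the IS effect. The cause was not tested. Depth limits the precision of *Adh7* in the epididymis (5 to 29 counts in a sample), of *Crabp2* (0 to 20) and, in the IS, of *Rarres1* (5 to 43) and *Crabp1* (5 to 44).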
